A study of Mus musculus with 8 samples.

Results

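The arrays of RAW 264.7 macrophages labelled with cortisol were compared with the arrays of the same cells labelled without it. These are 4 of the 8 arrays of the series, 2 labelled with cortisol and 2 without, taken by cell line and treatment label alone. RAW 264.7 is a macrophage-like mouse line of BALB/c origin, and the cells had been kept for 48 h in a transwell co-culture with 3T3-L1 pre-adipocytes, which share the medium but do not touch them. The 4 conditions were untreated (NT), serotonin at 100 µM (S), cortisol at 100 µM (C) and cortisol with serotonin (CS), for which the labels give 100 µM of each hormone while the methods name a single dose of the pair. Both hormones came from stocks in dimethyl sulfoxide. Each condition had 1 array and so no replicate, and RAW 264.7 is a single line, so every spread given here is between single arrays. RNA of the cells carried the dye Cy5, and a common reference carried Cy3. The labels describe this reference as RNA of all samples mixed equally, and the methods describe pooled cRNA of untreated cells of both kinds grown alone. It cancels when an array is subtracted from another.

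Cortisol enters cells and binds the glucocorticoid receptor, a transcription factor held in the cytoplasm by heat shock proteins and their partners. The bound receptor moves to the nucleus, where it raises genes such as Fkbp5, Tsc22d3, Per1 and Dusp1 from palindromic DNA sites and lowers cytokine and chemokine genes driven by NF-kB and AP-1. In macrophages it is known for damping inflammation and for raising scavenger receptors.

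The design holds 2 comparisons that share no array. C minus NT sets cortisol against no treatment, and CS minus S sets cortisol against none in the presence of serotonin. Values are log2 differences of the Cy5 to Cy3 ratio, so that 1 is 2-fold, and the error after ± is that which the scanner software gave the log ratios of the arrays compared, a technical error only. A gene had to be well above background in both channels on all 4 arrays, which left 12064 genes, 9708 of them with a RefSeq name. In bulk RNA a smaller share of cells that express a gene and less of its RNA per cell cannot be told apart.

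The C array was close to the NT array, with a correlation of log ratios of 0.986 over 14553 probes, while the S array stood apart. It had the brightest Cy5 channel, with a median signal of 103 units against 51 to 61 on the others, over a background of 28, and its correlations with the others were 0.948 to 0.965. No spot was saturated. The S array enters CS minus S but not C minus NT. The cell type fitted its label. Of 11 defining macrophage markers with a probe, 10 or 11 were well above background on each macrophage array, with median log ratios of 0.876 to 1.41 against -2.75 to -1.99 on the 3T3-L1 arrays. On each 3T3-L1 array 8 of the 11 were also well above background, so the lines differed more in the log ratios than in this count. The 9 defining fibroblast markers with a probe had medians of -3.62 to -2.60 on the macrophage arrays, with 4 of 9 above background.

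Genes of the glucocorticoid response were not higher on the arrays labelled cortisol. The receptor itself, Nr3c1, had log ratios of -0.47 (NT), -0.31 (S), -0.35 (C) and -0.47 (CS), and the arrays with and without cortisol overlapped. Of 30 listed targets of the receptor, 20 were measured, 6 of which were higher and 14 lower in C minus NT. In CS minus S, 5 were higher and 15 lower. Their median was -0.16 in both comparisons, beside 0.02 and 0.03 for all genes. Of the 20, 12 (60%) were lower in both comparisons and 3 (15%) higher in both, where 19.8% of all genes were lower in both and 32.3% higher in both. The 12 lower in both became 9 with median centring, 8 with the Cy5 channel alone and 13 with the log ratio of the scanner software. The list lay below all genes by its median in both comparisons under each of the 7 processing settings tried. In CS minus NT, which leaves out the S array but is not matched for serotonin, the targets had a median of 0.13, with 12 higher and 8 lower. The median of all genes there was -0.01. That comparison holds the serotonin difference as well, so it cannot show what part the S array had. No target passed the limma test described below, and 1 (Ddit4) differed by 2-fold in a single comparison.

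Fkbp5, a chaperone of the receptor and one of its usual targets, had log ratios of 1.25 (NT), 1.58 (S), 1.07 (C) and 1.26 (CS). Its difference was -0.18 ± 0.34 in C minus NT and -0.32 ± 0.36 in CS minus S, both within error, and the groups overlapped. Tsc22d3, which encodes the glucocorticoid-induced leucine zipper GILZ, had log ratios of -0.58, 0.05, -0.86 and -0.06 in the same order. It was thus lowest on the C array and close to equal on S and CS, with differences of -0.29 ± 0.30 and -0.10 ± 0.29. Per1, a clock gene with glucocorticoid sites, had log ratios of 0.84 (NT), 0.89 (S), 0.47 (C) and 0.56 (CS). Both cortisol-labelled arrays were below both others, by 0.37 ± 0.31 in C minus NT and 0.33 ± 0.31 in CS minus S. That order held for 12% of all genes. Dusp1, a phosphatase that switches off MAP kinases, had log ratios of -0.27, 0.09, -0.85 and -0.11, with differences of -0.58 ± 0.30 and -0.20 ± 0.29, and its groups overlapped. The metallothionein genes Mt1 and Mt2, whose products bind zinc and copper, were lower in both comparisons, Mt1 by -0.27 ± 0.29 and -0.21 ± 0.30 and Mt2 by -0.46 ± 0.29 and -0.78 ± 0.32. The log ratios of Mt2 were 0.54 (NT), 1.56 (S), 0.08 (C) and 0.78 (CS), and CS minus NT, which is not matched for serotonin, was 0.24. Cdkn1a, a cell cycle inhibitor, was among the 3 targets higher in both, by 0.26 ± 0.26 and 0.25 ± 0.25, with Pik3r1 and Glul. The other 10 listed targets, among them Zbtb16 and the scavenger receptor gene Cd163, were not measured on all 4 arrays.

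**Figure D1:**
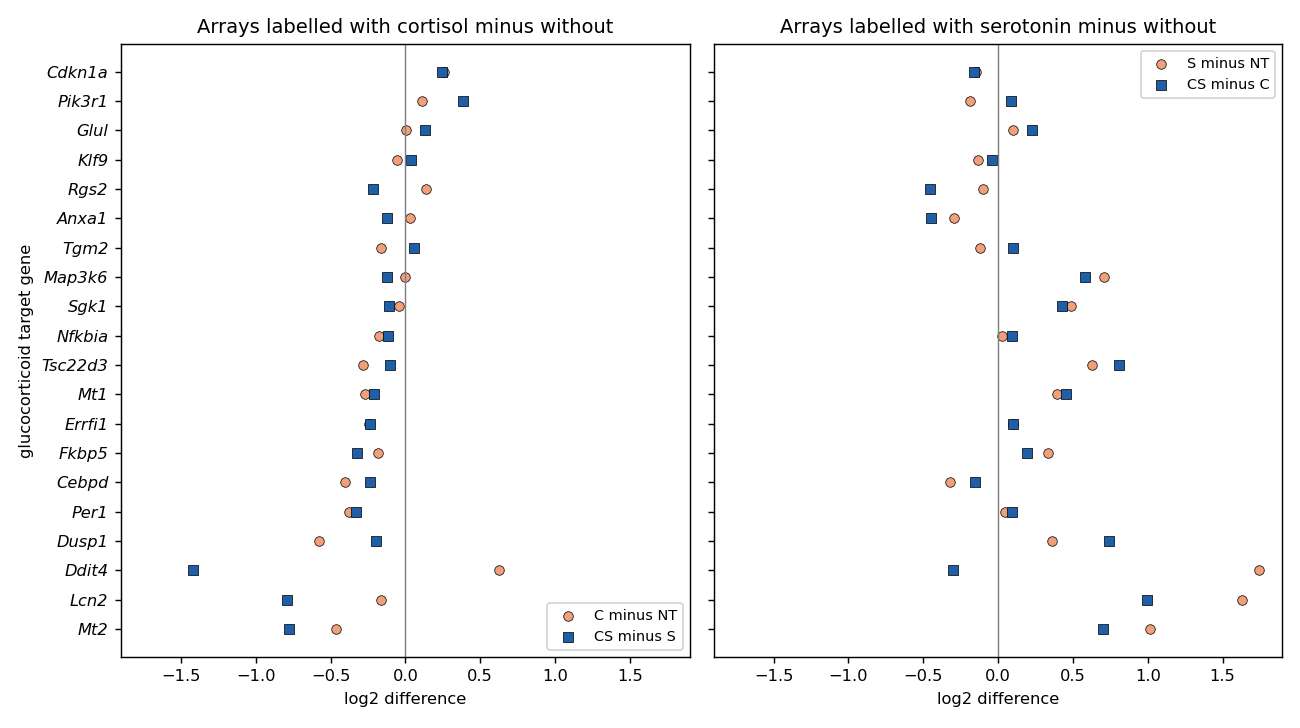
Log2 differences (x axis) of the 20 measured glucocorticoid targets (y axis) between arrays labelled with and without cortisol (left, C minus NT as circles and CS minus S as squares) and with and without serotonin (right, S minus NT as circles and CS minus C as squares), 1 array per condition and no error bars. On the left 12 genes lie below 0 in both comparisons, and on the right 12 lie above 0 in both.

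S minus NT and CS minus C are the differences of the arrays labelled with and without serotonin. Of the 20 targets 12 were higher in both, where 19.4% of all genes were, and 5 were lower in both. The 12 became 8 with median centring, 9 with the Cy5 channel alone and 13 with the log ratio of the scanner software. In S minus NT the targets' median was 0.10 beside -0.04 for all genes, and in CS minus C it was 0.10 beside -0.02. In each of the 7 settings both medians lay above those of all genes. With the arrays centred on their median in place of loess, S minus NT of all genes shifted to -0.17, and the targets had -0.10. These differences share the 4 arrays with the cortisol comparisons and are no separate evidence. Over all genes 92 (0.763%) differed by 2-fold in S minus NT and 28 (0.232%) in CS minus C, and of the targets these were Ddit4, Lcn2 and Mt2 in S minus NT. Tsc22d3 differed by 0.63 in S minus NT and 0.81 in CS minus C, Sgk1, a kinase gene induced by glucocorticoids in many tissues, by 0.49 and 0.43, and Lcn2, which encodes an iron-sequestering secreted protein, by 1.63 and 1.00. The log ratios of Lcn2 were -2.59 (NT), -0.96 (S), -2.75 (C) and -1.76 (CS), so that both serotonin-labelled arrays were above both others. The share of all genes with that order was not computed. Whether the labels match the hormones given was not tested, and the direction of every difference here is that of the labels.

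Promoter windows of 250 bases before the start are shown for 4 of these genes, because they let the receptor's DNA site be set beside the measured levels. They are RefSeq sequences of GRCm38.p6, written 5′ to 3′ on the strand of the gene. The Sgk1 window, from 1 of 6 annotated starts (chr10:21993640-21993889, plus strand), holds a full palindrome in capitals:
Sgk1: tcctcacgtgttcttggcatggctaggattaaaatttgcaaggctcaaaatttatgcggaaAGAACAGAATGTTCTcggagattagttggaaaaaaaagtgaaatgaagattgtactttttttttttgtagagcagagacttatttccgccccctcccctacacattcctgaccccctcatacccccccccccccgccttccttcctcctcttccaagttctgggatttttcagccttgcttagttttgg
The Tsc22d3 window, from 1 of 3 starts (chrX:140600523-140600772, minus strand), holds 1 arm of the palindrome in capitals:
Tsc22d3: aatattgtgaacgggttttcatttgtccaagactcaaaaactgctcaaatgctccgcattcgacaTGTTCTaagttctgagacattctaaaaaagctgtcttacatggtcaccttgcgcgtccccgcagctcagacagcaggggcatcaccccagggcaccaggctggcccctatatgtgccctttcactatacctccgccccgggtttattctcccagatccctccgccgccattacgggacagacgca
The Mt2 window (chr8:94172368-94172617, plus strand) holds 3 metal response elements and 1 AP-1 site in capitals:
Mt2: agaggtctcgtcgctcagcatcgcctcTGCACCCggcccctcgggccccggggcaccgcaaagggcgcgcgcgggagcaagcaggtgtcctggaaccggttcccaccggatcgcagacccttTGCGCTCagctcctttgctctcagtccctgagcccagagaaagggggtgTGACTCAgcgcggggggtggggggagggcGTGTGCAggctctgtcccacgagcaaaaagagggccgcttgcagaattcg
The Chst1 window (chr2:92600867-92601116, plus strand), shown because Chst1 had the largest difference shared by both comparisons, holds no arm of the palindrome:
Chst1: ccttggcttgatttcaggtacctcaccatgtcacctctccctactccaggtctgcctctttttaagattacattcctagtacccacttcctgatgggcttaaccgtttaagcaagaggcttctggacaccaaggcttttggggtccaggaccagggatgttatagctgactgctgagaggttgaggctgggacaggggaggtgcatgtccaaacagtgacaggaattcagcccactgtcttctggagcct
The palindrome searched was AGAACA followed after any 3 bases by TGTTCT, the arm was AGAACA, the metal response element was TGCGCNC or TGCACNC and the AP-1 site was TGANTCA, each on both strands. The palindrome includes both of its arms. The palindrome was in 0.00913% of 32851 windows, the arm in 16.1%, a metal response element in 21.4% and an AP-1 site in 6.75%. Of the 20 measured targets, 18 had windows, 29 in all, of which 1 (Sgk1) held the palindrome and 4 held an arm, in Sgk1 and Tsc22d3. Sgk1, with the palindrome, had differences of -0.05 ± 0.31 in C minus NT and -0.11 ± 0.29 in CS minus S. These are matches of letters in these windows only.

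Few genes differed by 2-fold between the C and NT arrays. The C array exceeded NT by 2-fold or more for 4 genes of 12064 (0.0332%) and was 2-fold below it for 3 (0.0249%). Higher were Arg1, Uvssa, Atf3 and an unnamed probe, and lower were Dpys, Chst1 and Dtwd2. CS exceeded S by as much for 54 genes (0.448%) and was below it for 52 (0.431%). At 1.5-fold, C minus NT had 31 genes higher (0.257%) and 49 lower (0.406%), and CS minus S had 379 (3.14%) and 241 (2%). The split depended on the scaling: it was 2 higher and 10 lower in C minus NT with median centring, 13 and 24 with the log ratio of the scanner software and 8 and 62 with the Cy5 channel alone. In CS minus S the same settings gave 40 and 70, 289 and 89, and 1206 and 390. The SD over genes was 0.164 in C minus NT and 0.296 in CS minus S, and 94.1% and 77.5% of genes were within the error of their own difference. Across genes, which are not independent replicates, C minus NT and CS minus S had a Pearson correlation of 0.00903 and a Spearman correlation of 0.0284, from -0.408 (Cy5 alone) to 0.0749 (scanner log ratio) in other settings.

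Only Chst1 differed by 2-fold the same way in both comparisons (0.00829% of genes), and no gene was 2-fold higher in both. At 1.5-fold, 4 genes were higher in both (0.0332%), 6 lower in both (0.0497%) and 16 differed in opposite ways (0.133%). Set against NT in place of the S array, the CS array gave 22 genes at least 2-fold higher and 9 lower. Then Chst1 was at -0.58 and Arg1 with the unnamed probe were 2-fold higher in both, although that comparison shares the NT array with C minus NT. A limma fit over the 4 arrays with added effects of cortisol and serotonin leaves 1 residual degree of freedom, the gap between C minus NT and CS minus S. Its p-values thus rest on how closely these comparisons agree, moderated over genes, and on no replicate. The fit called 0 of 12064 genes at a Benjamini-Hochberg adjusted p under 0.05, with 531 (4.40%) at an unadjusted p under 0.05 and a smallest adjusted p of 0.909. With all 8 arrays the limma fit called 0 of 11624, with 323 at an unadjusted p under 0.05. With median centring it called 30 (9 higher, 21 lower), where the estimated prior degrees of freedom were infinite, so that all genes shared 1 variance. Among those 30 were Chst1, H1f0, Krcc1 and Mmp9, but also Hap1, which differed only in CS minus S. An exact permutation test of a single gene with 2 arrays on each side cannot give a two-sided p below 0.333.

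**Figure D2:**
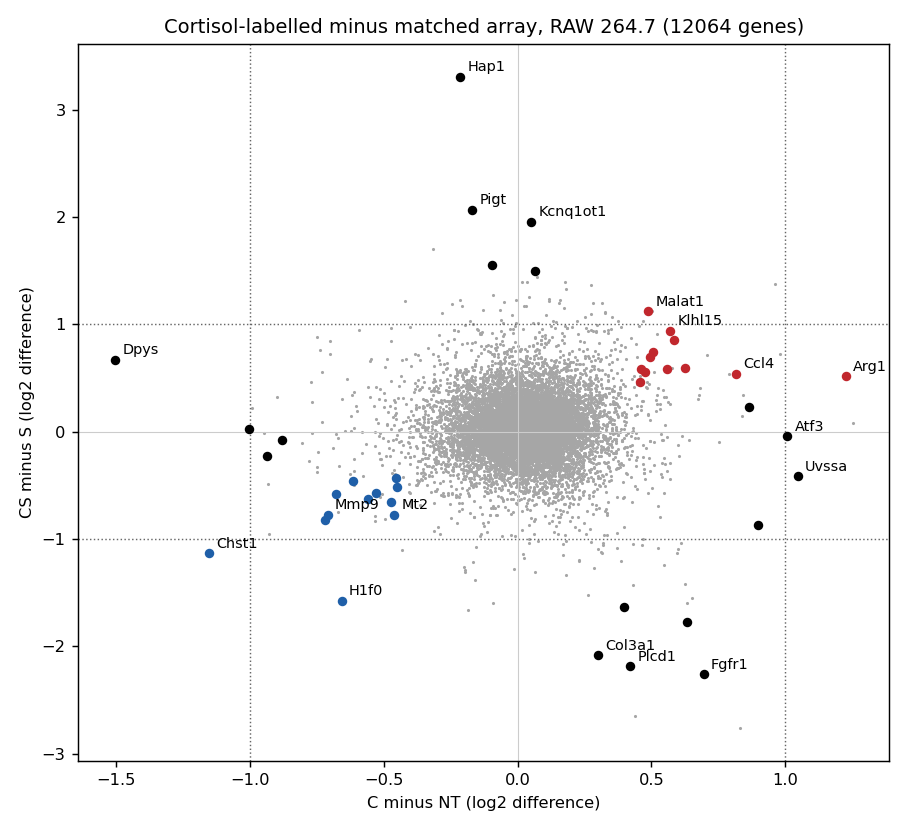
Log2 difference in C minus NT (x axis) against CS minus S (y axis) for 12064 genes (grey), with the 12 named genes with the largest differences shared upwards in red, the 12 shared downwards in blue and the 5 largest of each direction in a single comparison in black. Dotted lines mark 2-fold, and only Chst1 lies beyond them in both comparisons the same way.

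Genes lower on both cortisol-labelled arrays were led by Chst1, which encodes a sulfotransferase that acts on keratan sulfate. Its log ratios were -0.09 (NT), 0.46 (S), -1.24 (C) and -0.67 (CS), so both cortisol-labelled arrays lay below both others. It was 2.23-fold lower in C minus NT (-1.15 ± 0.31) and 2.19-fold lower in CS minus S (-1.13 ± 0.30), with a limma p of 0.000157 before and 0.909 after adjustment. Mmp9, the gelatinase that macrophages secrete to degrade matrix, had log ratios of 1.22 (NT), 0.96 (S), 0.51 (C) and 0.19 (CS). Its groups did not overlap, with 21.5% of all genes having both cortisol-labelled arrays above both others and 12% below. The differences of Mmp9 were -0.71 ± 0.32 and -0.78 ± 0.31, and its limma p was 0.00113 before and 0.909 after adjustment. Mmp9 was also lower in CS minus NT, by -1.04.

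Krcc1 had log ratios of -0.45, -0.37, -1.17 and -1.19 in the order NT, S, C and CS, with differences of -0.72 ± 0.30 and -0.82 ± 0.31. H1f0, the linker histone H1.0 of resting and differentiated cells, had log ratios of 0.16, 0.22, -0.50 and -1.36. It was the most uneven of the leading genes, 1.58-fold lower in C minus NT and 2.98-fold lower in CS minus S. Ccrl2, an atypical receptor for the chemoattractant chemerin, had log ratios of 0.60, 1.01, 0.04 and 0.38, with differences of -0.56 ± 0.33 and -0.63 ± 0.35. Gda, which encodes guanine deaminase, differed by -0.68 ± 0.41 and -0.58 ± 0.42. Htra1, a secreted serine protease gene, differed by less than or close to its error, at -0.53 ± 0.56 and -0.57 ± 0.54. Gstt1, a glutathione transferase gene, differed by -0.45 ± 0.30 and -0.52 ± 0.31. Mpv17l, Gm5617 and Acin1 completed the 12 named genes chosen by the smaller of their differences, from -0.66 to -0.44. Of these 12 genes only Mt2 overlapped between the groups, where 12% of all genes had both cortisol-labelled arrays below both others. The genes had been chosen for their values on these arrays, so the separation is no separate evidence.

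Genes higher on both cortisol-labelled arrays were led by Srd5a1, which encodes a reductase of testosterone, cortisol and other steroids. Its log ratios were -0.07 (NT), -0.10 (S), 0.56 (C) and 0.50 (CS), with differences of 0.63 ± 0.31 and 0.60 ± 0.37 and no overlap of the groups. Pdcd1, which encodes the inhibitory receptor PD-1, had log ratios of 1.24, 1.16, 1.82 and 2.01, with differences of 0.58 ± 0.45 and 0.85 ± 0.47. Klhl15, an adaptor gene of a ubiquitin ligase, had log ratios of -0.10, -0.41, 0.47 and 0.53, with differences of 0.57 ± 0.31 and 0.94 ± 0.36. Groups of these genes, chosen by the same measure, did not overlap, where 21.5% of all genes had both cortisol-labelled arrays above both others. Their limma adjusted p was 0.909.

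Arg1, which encodes the arginase of alternatively activated macrophages, had log ratios of -1.52 (NT), -0.88 (S), -0.30 (C) and -0.36 (CS). It was 2.34-fold higher in C minus NT (1.23 ± 0.34) and 1.43-fold higher in CS minus S (0.52 ± 0.31). Malat1, a nuclear long non-coding RNA, had log ratios of -0.85, -0.87, -0.36 and 0.25, with differences of 0.49 ± 0.30 and 1.12 ± 0.30. Rgs16, a brake on G protein signalling, differed by 0.51 ± 0.30 and 0.74 ± 0.30. Dhcr7, which encodes the last enzyme of cholesterol synthesis, differed by 0.46 ± 0.35 and 0.58 ± 0.33. Faap100, a member of the Fanconi anaemia core complex, Casz1, Hal and Dhx34 differed by 0.46 to 0.70. In CS minus S, Arg1, Ccl4, Dhcr7, Faap100 and Pdcd1 lost their direction with the Cy5 channel alone, and so did Mt2 among the lower genes. Acin1 lost it in C minus NT. The other 17 of the 24 genes kept both directions in all 7 settings.

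**Figure D3:**
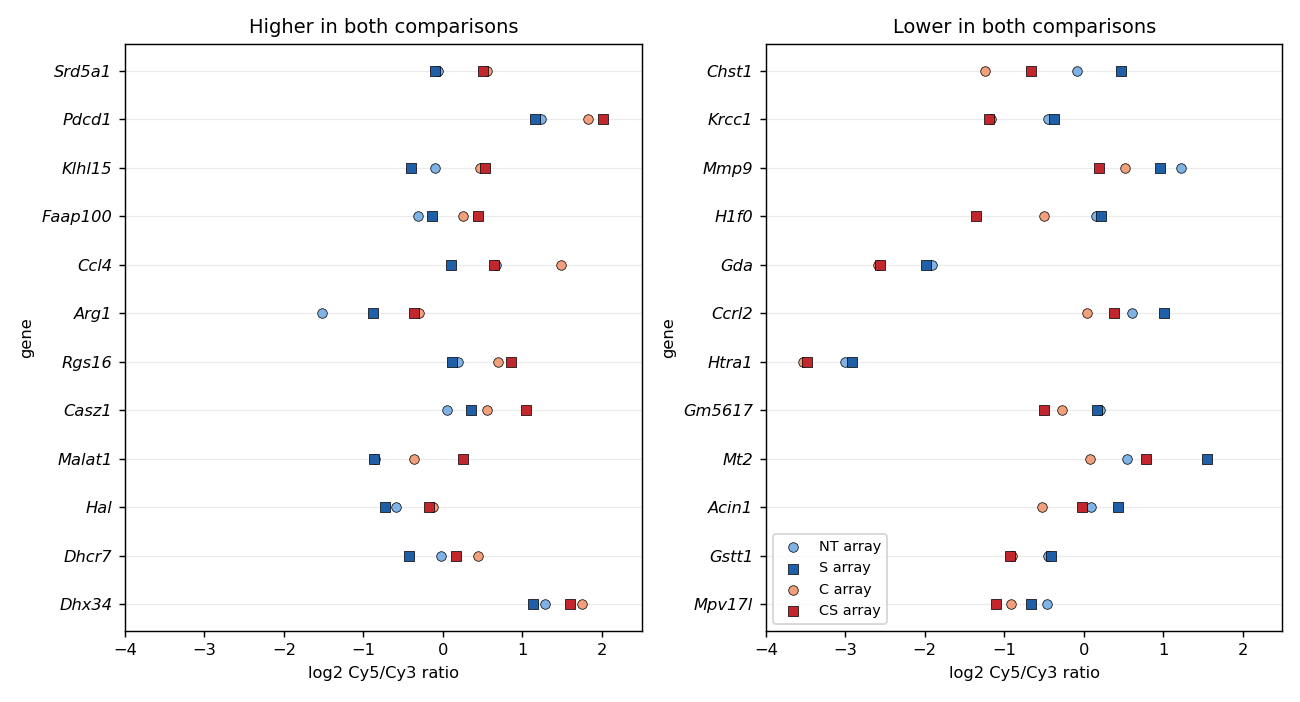
Log2 Cy5/Cy3 ratio (x axis) on each of the 4 macrophage arrays for the 12 named genes higher (left) and the 12 lower (right) in both comparisons (y axis), ordered by the smaller of their differences. Each point is 1 array (NT light blue circle, S dark blue square, C light red circle, CS dark red square). For Chst1, Krcc1 and Mmp9 both cortisol-labelled arrays lie left of both others, and for Ccl4 and Mt2 the groups overlap.

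Chemokine genes as a list were not lower on the cortisol-labelled arrays. Of 23 listed ligands 12 were measured, with medians of 0.15 in C minus NT and 0.19 in CS minus S. Of the 12, 7 (58.3%) were higher in both comparisons and 1 (8.33%) lower in both, beside 32.3% and 19.8% of all genes. The ligands ranged from -0.512 to 0.816 in C minus NT and from -1.025 to 0.661 in CS minus S. In CS minus S 1 ligand was 2-fold lower, beside 0.431% of all genes, and none was 2-fold higher. The list lay above all genes in both comparisons in all 7 settings. In CS minus NT the median was 0.07, and none passed the limma test. Ccl4, which encodes the macrophage inflammatory protein MIP-1 beta, had log ratios of 0.67 (NT), 0.10 (S), 1.49 (C) and 0.64 (CS). It was highest on the C array, but the CS array was no higher than NT, and its differences were 0.82 ± 0.32 and 0.54 ± 0.29. Its neighbour Ccl3, for MIP-1 alpha, had log ratios of -0.06, -0.55, 0.19 and -0.01, with differences of 0.25 ± 0.36 and 0.54 ± 0.30, the first of which turned to -1.92 with Cy5 alone. Ccl2, the monocyte chemoattractant, had log ratios of -1.77, -2.67, -1.61 and -2.46, and the differences of 0.16 ± 0.38 and 0.22 ± 0.46 were within error. Ccl6 differed by 0.15 ± 0.45 and 0.46 ± 0.41, and Cxcl16 by 0.22 ± 0.39 and 0.29 ± 0.44.

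Cytokine genes that glucocorticoids are known to lower could be read in part only. Il1b, Il6 and the anti-inflammatory Il10 were not well above background on all 4 arrays, and no probe was matched to Il12b. Tnf had log ratios of 1.15 (NT), 0.70 (S), 1.28 (C) and 1.21 (CS), so both cortisol-labelled arrays were above both others, by 0.13 ± 0.34 and 0.51 ± 0.32. That order held for 21.5% of all genes, and the C minus NT difference of Tnf was within its error. Tgfb1 had log ratios of 1.99, 1.62, 1.97 and 1.81, with differences of -0.02 ± 0.42 and 0.18 ± 0.40. Il1rn, which encodes the antagonist of the interleukin-1 receptor, had log ratios of -1.40, -1.13, -1.83 and -2.23. It was lower by -0.43 ± 0.37 and -1.10 ± 0.41, with a limma p of 0.0104 before and 0.909 after adjustment, and its CS minus S turned to 0.83 with Cy5 alone. The granulocyte growth factor gene Csf3 differed by -0.46 ± 0.44 and -0.18 ± 0.49. Of 19 measured NF-kB pathway genes 4 (21%) were higher and 5 (26.3%) lower in both comparisons. Of 17 measured Toll-like receptors and adaptors 5 (29.4%) were higher and 4 (23.5%) lower. Over all genes 32.3% were higher and 19.8% lower in both. Nfkbia, the inhibitor of NF-kB that glucocorticoids raise, differed by -0.18 ± 0.37 and -0.11 ± 0.38.

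Among immediate early genes, Atf3, a stress-induced repressor, had log ratios of -2.15 (NT), -2.38 (S), -1.14 (C) and -2.42 (CS), with a higher value on the C array alone. Klf2, a quiescence factor of endothelium and monocytes, had log ratios of -0.04, 0.15, 0.83 and 0.38, with differences of 0.86 ± 0.30 and 0.23 ± 0.30. Fos differed by -0.58 ± 0.30 in C minus NT and by close to 0 in CS minus S. Of 19 measured genes of this list 4 were higher and 2 lower in both comparisons. These shares were below the 32.3% and 19.8% of all genes.

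Markers of macrophages were more often lower than higher, with 11 lower and 5 higher of 16 in each comparison. Of the 16 measured, 7 (43.8%) were lower in both and 1 (6.25%) higher in both, beside 19.8% and 32.3% of all genes. Their medians were -0.09 and -0.14. Among the defining markers, Tyrobp was higher in both, with log ratios of 1.41 (NT), 1.37 (S), 1.43 (C) and 1.54 (CS). Itgam, the integrin CD11b, had log ratios of 2.65 (NT), 2.28 (S), 2.25 (C) and 1.60 (CS), with differences of -0.40 ± 0.35 and -0.68 ± 0.31. Laptm5, a lysosomal membrane protein gene of blood cells, differed by -0.25 ± 0.36 and -0.81 ± 0.35. Spi1, the myeloid factor PU.1, had log ratios of 1.51, 1.28, 1.37 and 0.30, a low value on the CS array alone. In C minus NT the list lay below all genes in 6 of 7 settings, and in CS minus S in all 7, with a median of -0.36 in CS minus NT. Over the same comparisons the fibroblast and pre-adipocyte list had medians of 0.15 and -0.10, and none of its 14 measured genes had a log ratio above -1.69. Its part in these results was not tested.

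Of 11 genes of alternative activation measured, 5 (45.5%) were higher in both comparisons and 1 (9.09%) lower in both, beside 32.3% and 19.8% of all genes. The medians were -0.02 in C minus NT and 0.36 in CS minus S. Besides Arg1, Stab1, a scavenger receptor gene, differed by 0.20 ± 0.39 and 0.36 ± 0.40. Clec10a and Trem2 differed by 0.82 ± 0.38 and 0.47 ± 0.29 in CS minus S, but by -0.07 ± 0.42 and -0.02 ± 0.29 in C minus NT. The osteoclast list had medians of -0.23 and 0.33, and Mmp9 was among its 2 genes lower in both. Without the S array, in CS minus NT, the medians were 0.13 for alternative activation and -0.01 for the osteoclast list. Of the metalloproteinase list, Mmp19 was lower with Mmp9, with log ratios of 0.52 (NT), 0.35 (S), -0.23 (C) and -0.03 (CS) and differences of -0.75 ± 0.31 and -0.38 ± 0.31. Plau, which encodes urokinase, had log ratios of 0.48, -0.90, 0.70 and 0.01 and was higher by 0.23 ± 0.30 and 0.91 ± 0.30. Of the 28 measured lysosomal genes 8 (28.6%) were higher and 7 (25%) lower in both, near the 32.3% and 19.8% of all genes.

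Lists of glycolysis and of the stress response differed in opposite directions in the comparisons. Of 28 measured genes of glycolysis and hypoxia, 25 were higher in C minus NT and 23 lower in CS minus S, with medians of 0.14 and -0.24. Of all genes 56.8% were higher in C minus NT, 55.7% were higher in CS minus S and 44.3% were lower there. Vegfa differed by 0.38 ± 0.21 and -0.33 ± 0.20, and Adm by 0.55 ± 0.29 and -0.25 ± 0.29. Of 26 measured genes of the unfolded protein and ATF4 stress response, 18 were higher in C minus NT and 18 lower in CS minus S, with medians of 0.16 and -0.25. Aars, an alanine tRNA synthetase gene, differed by 0.53 ± 0.32 and -0.80 ± 0.33, and Sesn2 by 0.33 ± 0.29 and -0.77 ± 0.30. Ddit4, an inhibitor of mTOR that stress and glucocorticoids induce, had log ratios of -1.49 (NT), 0.25 (S), -0.86 (C) and -1.16 (CS). It was 1.54-fold higher in C minus NT and 2.67-fold lower in CS minus S, with the S array high. Both lists lay on these opposite sides of all genes in all 7 settings, and in CS minus NT their medians were -0.11 and -0.18.

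Of 28 measured sterol and fatty acid synthesis genes 22 were higher in C minus NT and 17 in CS minus S, the second close to the share over all genes, with medians of 0.13 and 0.05. Of the 28, 14 (50%) were higher in both, and in CS minus NT the median was -0.04. In CS minus S the list was above all genes in 4 of 7 settings and below in 3. Fdps, for farnesyl diphosphate synthase, differed by 0.30 ± 0.32 and 0.24 ± 0.30. Of 34 measured cell cycle genes 17 (50%) were higher in both and 7 (20.6%) lower, with medians of 0.05 and 0.07. Of 22 measured NRF2 antioxidant targets 10 (45.5%) were lower in both and 3 (13.6%) higher, with medians of -0.03 and -0.06. Over all genes 32.3% were higher and 19.8% lower in both. No gene of these lists passed the limma test.

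**Figure D4:**
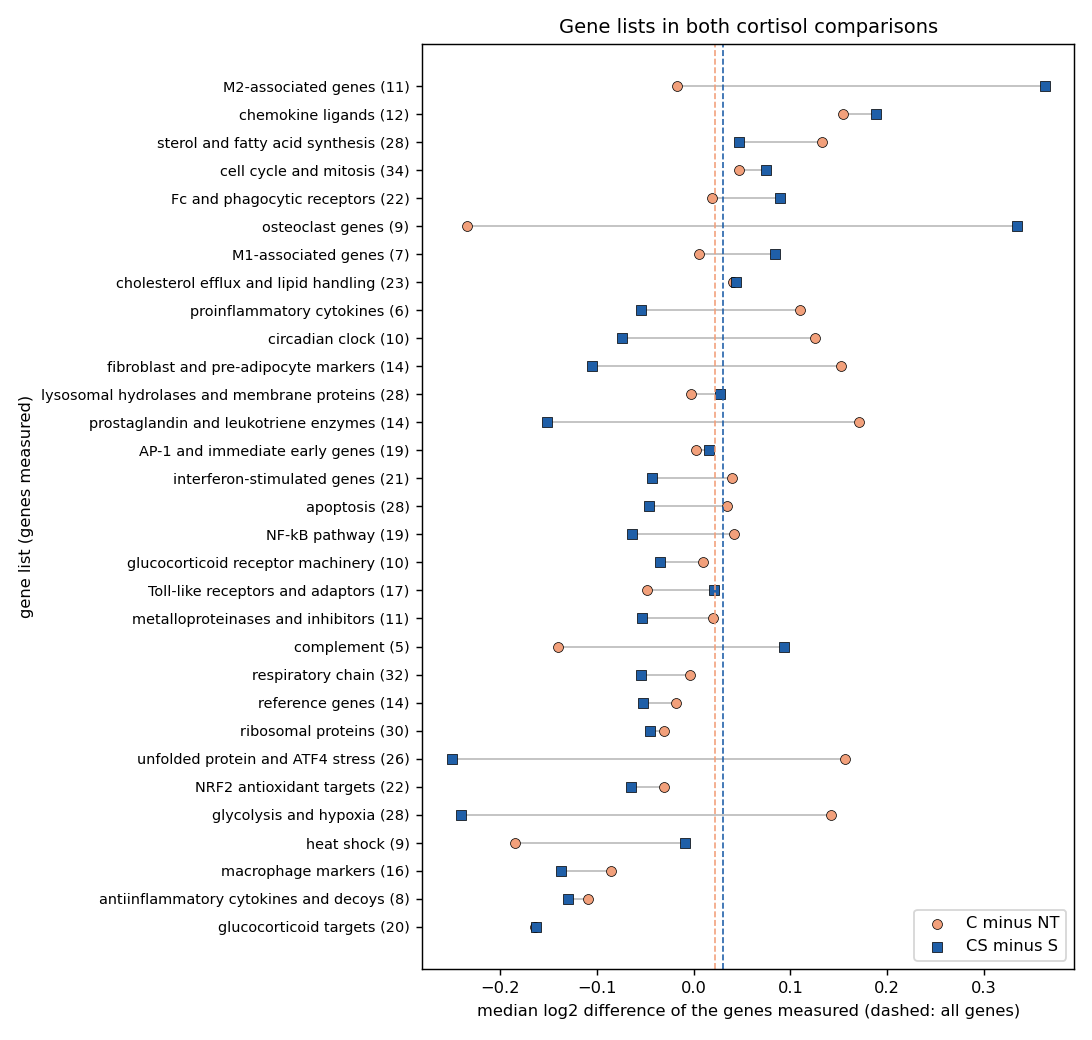
Median log2 difference (x axis) over the measured genes of each of the 31 lists with at least 5 of them (y axis, number measured in brackets), C minus NT as circles and CS minus S as squares joined by a line, with dashed lines at the medians of all genes (0.02 and 0.03). The glucocorticoid targets lie at -0.16 in both comparisons, and the osteoclast, unfolded protein and glycolysis lists lie on opposite sides.

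Of the named genes with the largest differences in 1 comparison, only Chst1 differed by 2-fold the same way in the other. Galnt18 differed nearly as much the opposite way, by 0.90 ± 0.58 in C minus NT and -0.87 ± 0.55 in CS minus S. Dpys, a dihydropyrimidinase gene, had log ratios of 0.60 (NT), -0.27 (S), -0.91 (C) and 0.40 (CS), and so was 2.83-fold lower in C minus NT and 1.59-fold higher in CS minus S. Its direction in C minus NT turned to 0.45 with the Cy5 channel alone, and that of Uvssa, 2.07-fold higher in C minus NT, to -0.14. Fabp4, a fatty acid binding protein gene, had log ratios of 2.60, 2.94, 1.72 and 2.86, a low value on the C array alone. In CS minus S, Hap1 was 9.90-fold higher, because its log ratio was -1.52 on the S array beside 2.02 (NT), 1.80 (C) and 1.78 (CS). Pigt and Kcnq1ot1 were 4.19-fold and 3.88-fold higher, with the S array lowest of the 4 for both. Fgfr1, Plcd1 and Col3a1 were 4.80-fold, 4.55-fold and 4.23-fold lower, and each was highest on the S array. Col3a1, a fibroblast collagen gene, had log ratios of -6.82 (NT), -4.82 (S), -6.52 (C) and -6.90 (CS). The fibroblast and pre-adipocyte list as a whole had a median of 0.62 in S minus NT and 0.20 in CS minus C. Its part in CS minus S was not tested. In CS minus NT, without the S array, Fgfr1 was at -0.11, Plcd1 at -0.03, Col3a1 at -0.08 and Hap1 at -0.23. Kcnq1ot1 stayed higher there, at 1.13, and Pigt was at 0.47.

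Some genes were well above background on one side only. On both arrays with cortisol and neither without, there were 41 genes, of which 1, an unnamed transcript, had a bound of at least 2-fold, at least 2.07-fold higher. On both arrays without cortisol and neither with it, there were 212, of which 5 had a bound of at least 2-fold. With no filter on dim probes 31925 genes had values. A gene enters either count only through the side where it is bright. The bounds ran down to 1.01-fold among the 41 and to 0.907-fold among the 212. Spots well above background in Cy5 made up 49.8% (NT) and 57.5% (S), against 47.9% (C) and 48.6% (CS). The part of this difference in the counts of 41 and 212 was not tested. The bound sets the mean of the bright arrays against the dimmest level well above background on the others. By this mean, the named genes were 6530411M01Rik at least 2.39-fold lower with cortisol, Olfr642 at least 2.34-fold and Izumo2 at least 2.07-fold. None of them was in a list. The log2 Cy5 level was 8.48 (NT) and 6.8 (S) for 6530411M01Rik and 8.32 and 6.55 for Izumo2, beside a dim level of 6.38 for both. These 2 bounds thus rested mostly on the NT array, while Olfr642 was at 7.81 (NT) and 7.58 (S).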

How the data were processed

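Macrophages were hybridised to 2-colour Agilent mouse arrays against a common reference, 1 array per condition. The authors deposited scanner output with signal intensity per channel and a log10 ratio, made with Feature Extraction 10.5.1.1 per the submitters' processing notes, and a value table. Its columns equal the log10 ratio within 0.005 over 43020 spots (medians 0, Cy5 over Cy3). The files hold deposited p-value columns, which were not used.

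Median signal intensities, the ones the deposited files hold, were background-corrected with normexp (offset 50) and loess-normalised in limma 3.58.1 (R 4.3.3). Control and outlier spots were left out, and spots of a probe and probes of a gene were averaged on the log2 scale of the deposited intensities. Of 39429 probes 27508 (69.8%) matched 20886 RefSeq genes of GRCm38.p6 by transcript accession, and others kept the file's name. A probe was kept where the software marked it as well above background for Cy5 and Cy3 alike on each macrophage array, which left 14553. Precision is limited by the number of arrays, and no value has a replicate. The residual of the limma fit to the macrophage arrays is the gap between C minus NT and CS minus S, moderated over genes. Its p-values therefore measure no spread between replicates. Each treatment held 1 array position and each cell line 1 slide, so that position and treatment, and slide and cell line, cannot be told apart. All macrophage arrays share 1 slide. The lowest correlation of any pair of the 8 arrays was -0.222. No column was left unmapped.

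Differences were C minus NT and CS minus S. limma (lmFit, eBayes, Benjamini-Hochberg over all genes) took cortisol and serotonin as added terms and was tested on simulated data. Named were the 12 genes each way with the largest smaller difference, the 5 largest each way in a single comparison, up to 6 members of each list by the same measure, and defining genes. Ddit4, Sgk1, Lcn2, Fos, Clec10a, Trem2, Vegfa, Adm, Aars and Sesn2 fall outside this rule and were picked with their values known. The 35 gene lists (796 genes in all), the comparisons and the tests were chosen with earlier results of these data known. Alternatives were no background correction, median centring, the scanner log ratio, the value table, Cy5 alone (quantile-normalised), no filter on dim probes, other probe filters and thresholds, other limma terms and leaving out arrays. CS minus NT was added after the data were seen.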

Additional observations from a re-analysis of the deposited data

Results flagged for a closer look

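Of the 24 genes with the largest differences shared by both comparisons, 20 were measured in both lines. For 5 of the 20 both cortisol differences in macrophages had the opposite sign to both in 3T3-L1, and for 4 all had the same sign. Of 5774 genes with 1 sign in both macrophage differences, 21.5% were opposite and 23.8% the same, so that the 5 are near the share over all genes. The genes had been chosen for their values in macrophages, and by limma the difference between the cell lines passed for none of 10995 genes (279 at an unadjusted p under 0.05, smallest adjusted p 0.98). The macrophage minus 3T3-L1 difference was 0.767 for Dhcr7, -1.5 for Chst1, -0.878 for Mmp9, -1.4 for H1f0 and -0.837 for Gda. In 3T3-L1 Chst1 differed by 0.61 in C minus NT and 0.10 in CS minus S, Mmp9 by 0.07 and 0.20, H1f0 by 0.12 and 0.45, Gda by 0.24 and 0.17, and Dhcr7 by -0.26 and -0.22. With 1 array per condition, cell line and slide cannot be told apart.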

How the results depend on the processing

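Of the counts of 2-fold genes, C minus NT gave 7, CS minus S 106 and both 1. In that order they were 37, 378 and 5 with the scanner log ratio, 37, 378 and 5 with the value table, 70, 1596 and 7 with Cy5 alone, and 83, 430 and 3 without the filter on dim probes. Median centring gave 12 in C minus NT, and probes kept by the 2 arrays compared gave 11. At 1.5-fold, 10 genes differed the same way in both. Without the S array, in CS minus NT, the counts were 31 and 2. The limma fit called 30 genes with median centring and 0 to 53 when an array was left out, with 53 without the NT array or without the C array, where the cortisol effect is CS minus S alone and the spread comes from the 3T3-L1 arrays. The difference between the cell lines was called for 0 to 25 genes, with 25 without the macrophage NT or C array. Of 223 named or listed genes 144 had a difference that turned sign in at least 1 setting. Of differences of at least 2-fold, the sign turned with Cy5 alone for Uvssa (-0.144) and Dpys (0.452) in C minus NT, and for Col3a1 (1.05), Fgfr1 (0.233), Plcd1 (0.19) and Il1rn (0.829) in CS minus S. The cause was not tested. Of the other values of named genes across settings 2560 stayed and 207 moved, and of 10 genes followed in limma 3 (Chst1, Krcc1 and Mmp9) passed with median centring, while of the list medians 255 stayed and 153 moved. No paired analysis was possible because the labels carry no replicate numbers shared by groups, with 1 array in each. Signal over background limits the values: 43.7% to 46% of spots were above background in both channels, and most differences in C minus NT were within their technical error.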
